A study of Mus musculus with 6 samples.

Results

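Genes of cholesterol synthesis and its control by the transcription factor SREBP2 were examined in stromal cells sorted from mouse large intestine. The genes were 8 of the 24346 in each deposited table: the enzyme genes Hmgcs1, Idi1, Sqle, Fdft1, Lss and Cyp51, the sterol sensor gene Insig1 and Srebf2, which encodes SREBP2. They were chosen by pathway membership, but with earlier results of these data known, and all 8 were found by symbol in every table. RNA came from 6 mice, aged 12 weeks and killed after 1% dextran sulfate sodium, an agent that injures the colonic epithelium. The 3 controls (libraries 8, 9 and 43) carried floxed alleles of Il10ra, the gene of the receptor chain that binds interleukin-10. The Pdgfra-cre group (libraries 13, 23 and 25) carried the same floxed alleles and a cre recombinase under control of Pdgfra, a gene expressed in fibroblasts. Sorted cells were live and positive for Podoplanin, with no CD45, CD31 or EpCAM on the surface, so the sample can hold any Podoplanin-positive stromal cell and not fibroblasts alone.

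Cells build cholesterol from acetyl-CoA through the mevalonate pathway, then through squalene and lanosterol. When sterols in the endoplasmic reticulum are low, the escort protein SCAP carries SREBP2 to the Golgi, where proteases release its active part, which enters the nucleus and induces nearly all enzymes of the pathway. When sterols are plentiful, INSIG proteins hold SCAP back. INSIG1 is itself induced by SREBPs, and so its mRNA is often read together with those of the enzymes.

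Promoter sequences are shown for 3 genes because they hold letters resembling the sterol regulatory element, the site that SREBPs bind. Of the 8 genes, 6 had a window of bases before the start site in RefSeq (GRCm38.p6, the assembly that mm10 names), and Sqle and Fdft1 had none in the table used. Each stretch ends before the first transcribed base of either RefSeq or GENCODE M21 and is written 5′ to 3′ on the strand of the gene. Capitals mark matches on either strand to TCACNNCA, a loose form of the element, and to the CCAAT box, a site of the NF-Y factor that acts beside SREBPs. The stretches lie at chr13:119690101-119690350 on the plus strand for Hmgcs1, chr5:4104747-4104947 on the minus strand for Cyp51 and chr15:82147019-82147180 on the plus strand for Srebf2.
Hmgcs1: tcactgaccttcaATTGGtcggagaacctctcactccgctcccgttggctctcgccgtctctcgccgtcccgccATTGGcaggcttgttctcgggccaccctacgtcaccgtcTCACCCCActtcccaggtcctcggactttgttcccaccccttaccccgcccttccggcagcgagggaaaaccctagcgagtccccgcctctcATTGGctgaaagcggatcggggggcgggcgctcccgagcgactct
Cyp51: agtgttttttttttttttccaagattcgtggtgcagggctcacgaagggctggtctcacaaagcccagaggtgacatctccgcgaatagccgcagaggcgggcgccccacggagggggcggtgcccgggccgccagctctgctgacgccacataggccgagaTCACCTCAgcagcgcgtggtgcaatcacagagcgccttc
Srebf2: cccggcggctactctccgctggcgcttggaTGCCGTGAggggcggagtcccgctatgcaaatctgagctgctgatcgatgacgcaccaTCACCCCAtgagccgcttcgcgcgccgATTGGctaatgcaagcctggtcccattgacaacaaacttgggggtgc

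The exact core TCACCCCA lay in 2 of the 6 windows of 250 bases, Hmgcs1 and Srebf2, against 1.34% of all 32851 RefSeq windows of that length. The loose form, which includes the core, lay in 3 of 6 (Hmgcs1, Cyp51 and Srebf2), against 11.4% of all windows. CCAAT lay in 6 of 6 (33.9% of all windows), as did the GC box GGGCGG, a site of the SP1 factor (32.7%). Of the 12 other cholesterol enzyme genes with a window, 0 held the core, 5 the loose form, 11 CCAAT and 11 GGGCGG. All counts cover both strands and the whole windows, which run past the printed stretches of Cyp51 and Srebf2. The CCAAT match of Cyp51 lies outside its printed stretch. The motifs were chosen after the sequences had been seen, and a match is a run of letters and not a measured binding site.

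Levels are given as FPKM, fragment numbers scaled by transcript length and library size, which can be compared between genes. In controls Hmgcs1 had the highest mean, at 41.8 ± 4.41 FPKM (SD, n = 3), followed by Insig1 (37.5 ± 1.79), Sqle (27.6 ± 2.23) and Idi1 (25.9 ± 2.70). Fdft1 (19.6 ± 2.98), Srebf2 (17.1 ± 1.34) and Cyp51 (15.9 ± 3.34) came next, and Lss was lowest at 2.78 ± 0.502. The ranges of Hmgcs1 and Insig1 overlapped, as did those of Sqle and Idi1 and those of Fdft1, Srebf2 and Cyp51. Within each control library, however, Hmgcs1 lay above Insig1, Sqle above Idi1 and Fdft1 above Cyp51. Only the place of Srebf2 beside Fdft1 and Cyp51 changed from library to library. In Pdgfra-cre libraries the order was the same at both ends, but Sqle, rank 3 in controls, was at rank 6.

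All 8 genes had lower mean levels in Pdgfra-cre than in controls, and in 6 of them every Pdgfra-cre library lay below every control. None passed the test: with limma and Benjamini-Hochberg adjustment over 11429 tested genes, 0 of the 8 had an adjusted p under 0.05, against 0% of all tested genes. By unadjusted p under 0.05, 5 of 8 did, all lower, where 11% of all tested genes did and 5.49% were lower. That count was 3 of 8 without control library 8 or without Pdgfra-cre library 13. Groups that did not overlap, with lower values in Pdgfra-cre, were found in 6 of 8, against 8.29% of tested genes, and higher values without overlap in 0 of 8, against 8.07%. Log2 fold changes of FPKM + 1 had a median of -0.37 over the 8 genes and 0.0012 over all tested genes.

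**Figure D1:**
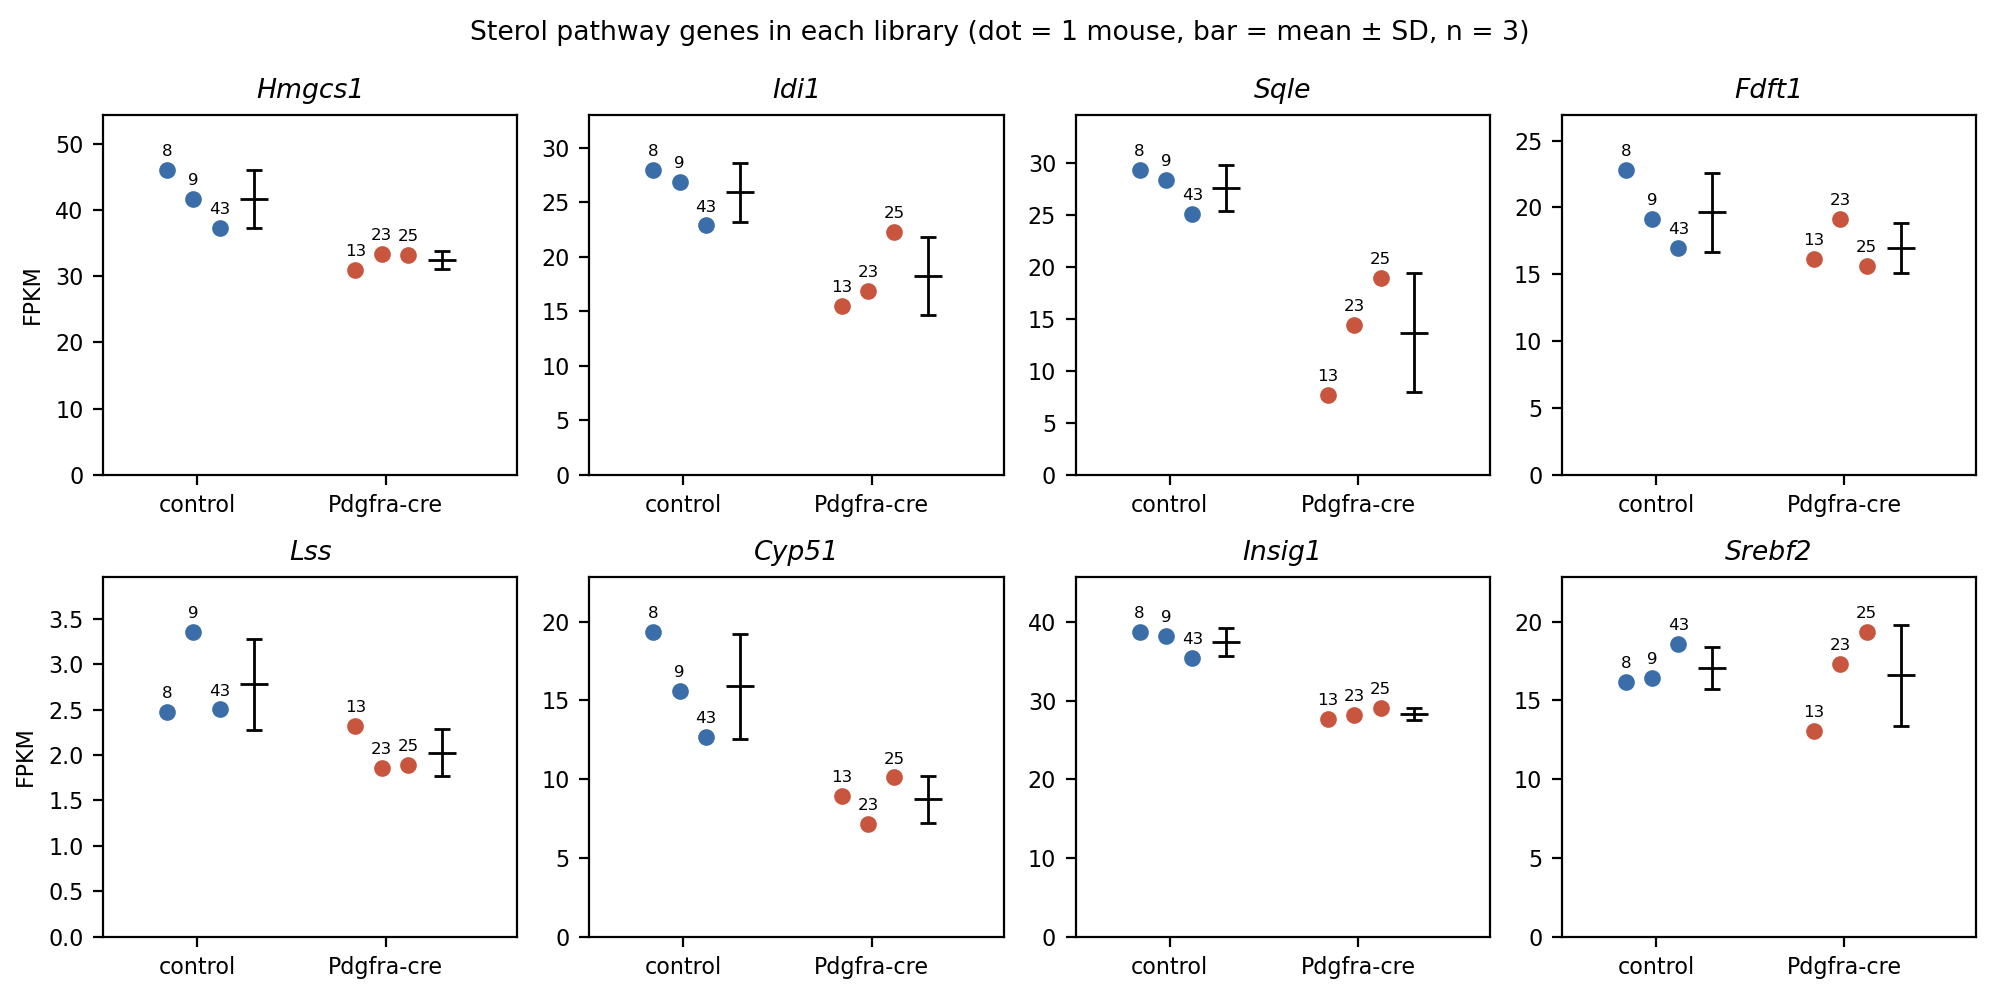
FPKM of the 8 sterol pathway genes in each library, with 1 dot per mouse labelled by its library number, in controls (blue) and Pdgfra-cre (red), and mean ± SD (n = 3) in black. Sqle ranges from 25.1 to 29.3 in controls and from 7.62 to 18.9 in Pdgfra-cre, whereas the ranges of Fdft1 and of Srebf2 overlap between the groups.

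Early in the pathway, Hmgcs1 encodes the cytosolic HMG-CoA synthase, which joins acetyl units on the way to mevalonate. Its FPKM was 46.2, 41.7 and 37.4 in control libraries 8, 9 and 43 and 31.0, 33.4 and 33.2 in Pdgfra-cre libraries 13, 23 and 25. The groups did not overlap, and the mean was 22.1% lower in Pdgfra-cre. The log2 fold change was -0.35 ± 0.13 (SE; 95% interval -0.64 to -0.054; limma adjusted p = 0.354). The gene lies on chromosome 13, 119690379 to 119708260 (mm10, GENCODE M21).

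Idi1 encodes the isomerase that readies isoprenoid units for joining (chromosome 13, 8885501 to 8892451). It had 28, 26.9 and 22.9 FPKM in control libraries 8, 9 and 43 and 15.5, 16.9 and 22.3 in Pdgfra-cre libraries 13, 23 and 25. Library 25 lay just under control library 43, and the other two Pdgfra-cre libraries were well below. The log2 fold change was -0.50 ± 0.17 (SE; limma adjusted p = 0.312).

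At the branch to sterols, Fdft1 encodes squalene synthase (chromosome 14, 63145150 to 63179578). Its FPKM was 22.8, 19.1 and 16.9 in controls 8, 9 and 43 and 16.2, 19.1 and 15.6 in Pdgfra-cre libraries 13, 23 and 25. The groups overlapped, since library 23 was level with control library 9 (log2 fold change -0.19 ± 0.16, SE; limma adjusted p = 0.747). The fold change was -0.085 without control library 8 and -0.29 as TPM.

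Sqle, the next enzyme, encodes squalene epoxidase, the first enzyme of the sterol part to use oxygen (chromosome 15, 59315077 to 59331192). It had 29.3, 28.3 and 25.1 FPKM in control libraries 8, 9 and 43 and 7.62, 14.4 and 18.9 in Pdgfra-cre libraries 13, 23 and 25. All Pdgfra-cre libraries were below all controls, with a wide spread among them and library 13 lowest. Its mean was 50.5% lower in Pdgfra-cre, the largest percentage difference among the 8 genes. The log2 fold change was -1.04 ± 0.27 (SE; 95% interval -1.66 to -0.43; limma adjusted p = 0.210), and -0.70 without library 13.

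Lss and Cyp51 act after squalene: lanosterol synthase closes the sterol rings, and CYP51 removes a methyl group from lanosterol. Cyp51 (chromosome 5, 4081145 to 4104746) had 19.4, 15.6 and 12.7 FPKM in controls 8, 9 and 43 and 8.91, 7.16 and 10.1 in Pdgfra-cre libraries 13, 23 and 25. The groups were apart, and the mean was 45.1% lower in Pdgfra-cre (log2 fold change -0.79 ± 0.20, SE; limma adjusted p = 0.209). Lss (chromosome 10, 76531588 to 76557138) was the weakest of the set, at 2.48, 3.36 and 2.50 FPKM in controls 8, 9 and 43 and 2.32, 1.86 and 1.89 in Pdgfra-cre libraries 13, 23 and 25. Its groups did not overlap, but the gap from library 13 to control library 8 was small (log2 fold change -0.32 ± 0.23, SE; limma adjusted p = 0.686). The fold change was -0.21 without control library 9 and -0.15 with a pseudocount of 5.

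Among the regulators, Insig1 had the tightest groups relative to their means (chromosome 5, 28071363 to 28078662). Its FPKM was 38.8, 38.2 and 35.4 in control libraries 8, 9 and 43 and 27.7, 28.2 and 29.1 in Pdgfra-cre libraries 13, 23 and 25. The gap between the groups was wider than the range within either, and the log2 fold change was -0.39 ± 0.12 (SE; 95% interval -0.66 to -0.12; limma adjusted p = 0.264). Srebf2 itself (chromosome 15, 82147181 to 82205379) had 16.2, 16.4 and 18.6 FPKM in controls 8, 9 and 43 and 13.1, 17.3 and 19.4 in Pdgfra-cre libraries 13, 23 and 25. Its groups overlapped fully, with the lowest and the highest value both in Pdgfra-cre (log2 fold change -0.053 ± 0.18, SE; 95% interval -0.45 to 0.34; limma adjusted p = 0.948). SREBP2 is activated by cleavage of the protein, which mRNA levels do not show.

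Across the 8 genes, Pdgfra-cre library 13 held the lowest value in 5 and control library 8 the highest in 6. A rough estimate from the most frequent low values put 1 read per kilobase at 0.114 to 0.132 FPKM. With the longest GENCODE transcript of each gene, about 114 to 178 reads then lay behind each value of Lss, about 285 to 1097 behind Sqle and about 899 to 1340 behind Hmgcs1. Lss has 8 transcripts there, the longest of 6992 bases, and a shorter one would give fewer reads.

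Of the 15 other enzyme genes of the pathway, 11 had a log2 fold change below 0 and 4 above, with a median of -0.21, and 0 passed the test. That median was -0.064 with a pseudocount of 5, -0.10 at a filter of 5 FPKM, -0.13 without control library 8 and -0.32 as TPM. As TPM, the median of all tested genes was itself -0.090, which also bears on the TPM medians of the lists below. Groups did not overlap in 3 of the 15, where they did not in 16.4% of all tested genes, so this count lies near the background. Over all 21 enzyme genes, those studied above included, 17 were below 0, against 49.7% of all tested genes, with a median of -0.24. Of the 21, 7 were lower with no overlap and 1 was higher, against 8.29% and 8.07% of all tested genes. Only 2 of the 15 other enzyme genes were lower with no overlap, so the count of 7 rests mostly on the genes studied above. Sc5d, which encodes lathosterol oxidase, had 29.5, 29.0 and 26.0 FPKM in controls 8, 9 and 43 and 18.1, 17.8 and 25.3 in libraries 13, 23 and 25 (log2 fold change -0.46 ± 0.17, SE; limma adjusted p = 0.336). Msmo1, which encodes the sterol methyl oxidase acting after CYP51, had 16.6, 18.7 and 23.9 FPKM in controls 8, 9 and 43 and 9.87, 16.4 and 14.4 in libraries 13, 23 and 25 (adjusted p = 0.403, limma; log2 fold change -0.52, and -0.32 without library 13). Tm7sf2, one of 2 sterol reductase genes at the step between CYP51 and Msmo1, was higher in Pdgfra-cre, at 0.666 ± 0.230 and 1.78 ± 0.559 FPKM (SD, n = 3 each). However, it was tested only because the Pdgfra-cre libraries reached 1 FPKM. Its log2 fold change of 0.73 was 0.26 with a pseudocount of 5 and 1.28 with one of 0.1. Lbr, the other reductase gene, had 15.2 ± 2.13 and 15.5 ± 4.69 FPKM.

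Fdps, the farnesyl diphosphate synthase gene, had 44.4, 67.2 and 33.3 FPKM in controls 8, 9 and 43 and 28.5, 34.4 and 39.1 in libraries 13, 23 and 25 (adjusted p = 0.553, limma). Its groups overlapped, and its log2 fold change of -0.45 was -0.18 without control library 9 and -0.68 without control library 43. The mevalonate genes Acat2 (log2 fold change -0.31), Mvk (-0.078), Pmvk (-0.40) and Mvd (0.18) also overlapped between groups. So did the late sterol genes Nsdhl (-0.10), Hsd17b7 (-0.21), Ebp (0.089) and Dhcr7 (-0.24).

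**Figure D2:**
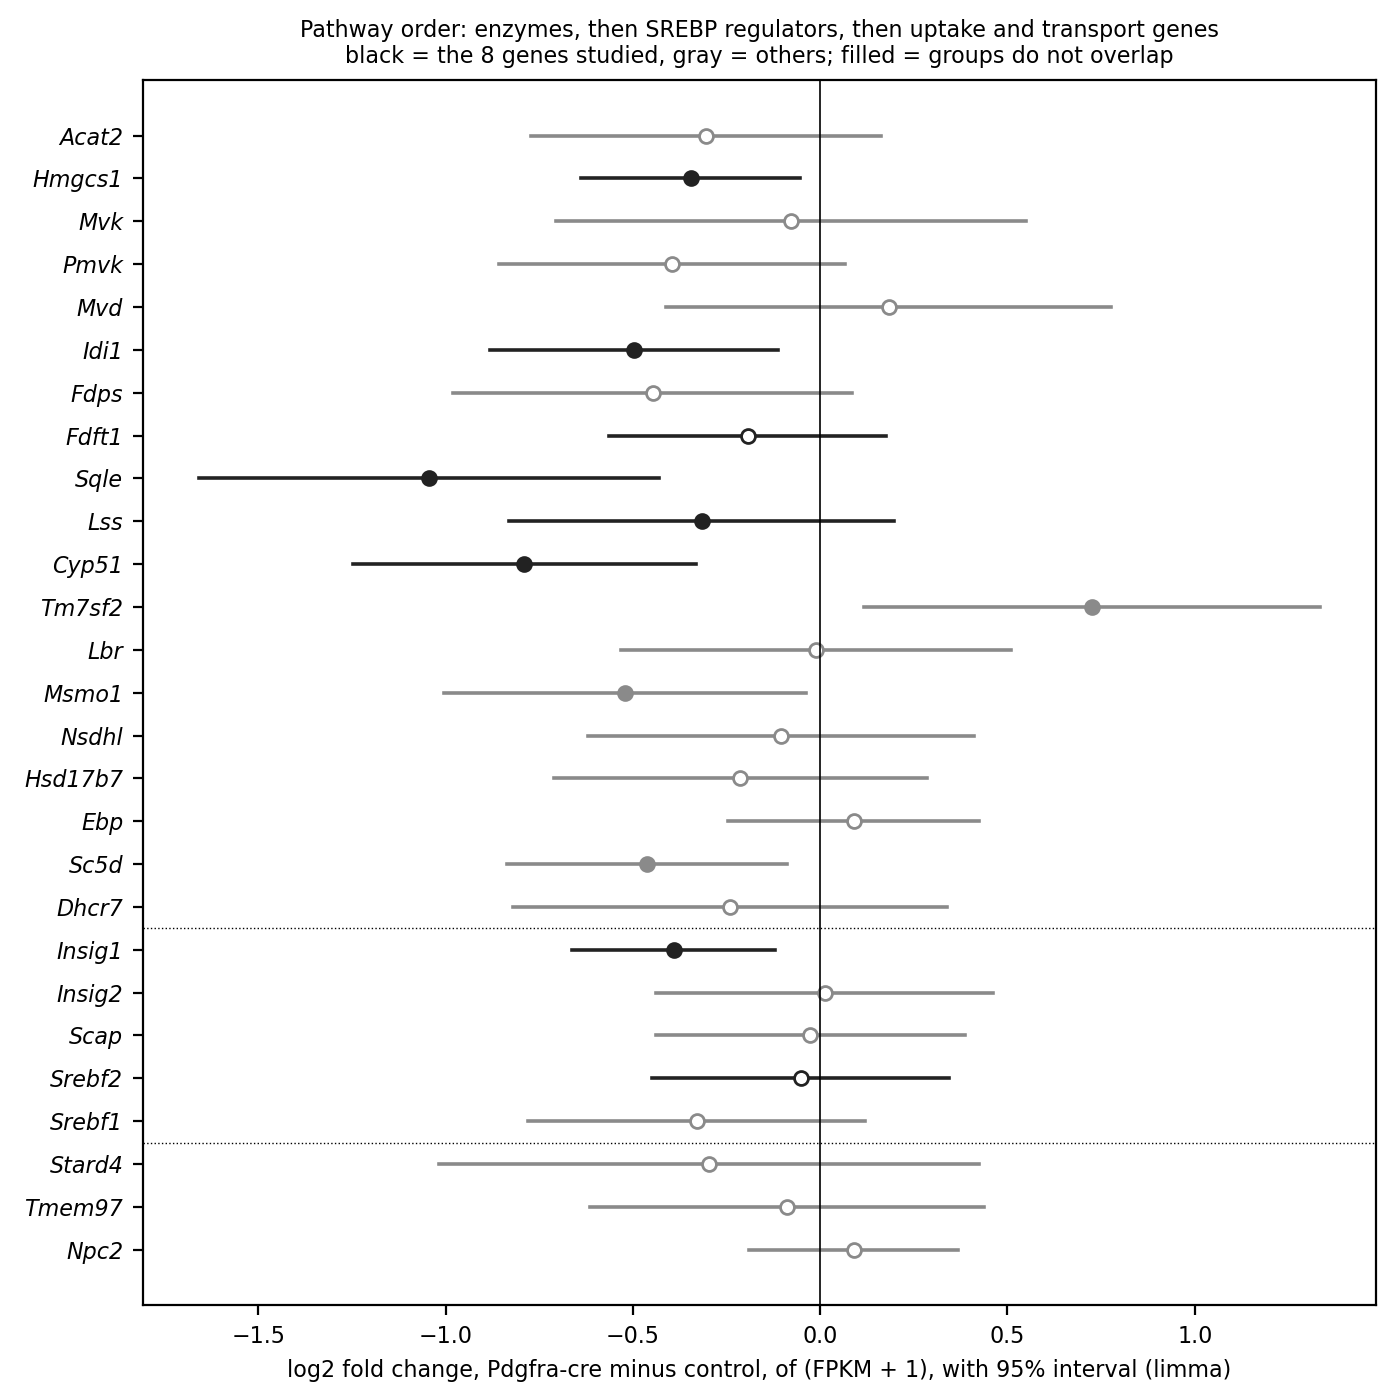
Log2 fold change of FPKM + 1 (Pdgfra-cre minus control) with its 95% interval from limma, for cholesterol synthesis enzymes in pathway order, then SREBP regulators, then uptake and transport genes. Sqle (-1.04) and Cyp51 (-0.79) lie farthest to the left, Srebf2 (-0.053) lies close to 0, and filled dots mark genes whose groups do not overlap.

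Ratios of 2 genes within a library do not depend on how libraries are scaled, and 4 were computed after the values had been seen. The ratio of Sqle to Fdft1 FPKM was 1.28, 1.48 and 1.48 in the control libraries and 0.471, 0.752 and 1.21 in the Pdgfra-cre libraries, apart between the groups, with an exact two-sided permutation p = 0.1, the smallest that 3 against 3 allows, and a Benjamini-Hochberg adjusted p of 0.267 over the 4 ratios. The ratios of Lss to Sqle, Insig1 to Insig2 and Srebf1 to Srebf2 overlapped between groups.

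The genes that sense sterols and process SREBPs centered near 0. Of 12 tested, 7 had a log2 fold change above 0 and 5 below (median 0.018), and 0 passed the test. The median lay between -0.078 and 0.097 over the alternatives. Scap, the escort gene, had 11.9 ± 1.39 FPKM in controls against 11.8 ± 2.12 in Pdgfra-cre, and Insig2 had 28.6 ± 1.38 and 29.7 ± 9.28 (SD, n = 3 each). Srebf1, which encodes the fatty acid regulator SREBP1, had 20.4 ± 1.55 and 16.3 ± 4.18 FPKM (adjusted p = 0.613, limma), with overlap and the lowest value in library 23, without which its log2 fold change went from -0.33 to -0.12. Groups were apart in 1 of the 12, where they were in 16.4% of all tested genes, so this count does not exceed the background. That gene was Erlin2, chosen after its values were seen, at 22.2, 23.1 and 19.3 FPKM in controls 8, 9 and 43 and 28.7, 34.3 and 23.6 in libraries 13, 23 and 25 (adjusted p = 0.419, limma). Among the most abundant genes of this list were Mbtps1, a protease that cleaves SREBPs (51.2 ± 7.03 and 54.0 ± 0.612 FPKM), and Ufd1l (38.5 ± 9.11 and 38.6 ± 3.14).

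Sterol uptake and transport genes that SREBP2 induces were mixed, with 6 of 9 below 0, a median of -0.088 and 0 passing. The median was 0.016 without control library 9 and -0.19 as TPM. Stard4, a sterol carrier gene, had 2.64 ± 0.808 and 2.06 ± 1.20 FPKM (SD, n = 3 each). Npc2, a lysosomal cholesterol carrier gene, was the most abundant of the list, at 84.2 ± 3.82 and 90.1 ± 11.5 FPKM, and Tmem97 had 25.6 ± 3.51 and 24.8 ± 7.87. All 3 of these overlapped between the groups.

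The isoprenoid branch, which leaves the pathway before sterols, had 7 of 12 genes below 0, a median of -0.15 (-0.041 without library 13, -0.26 at a filter of 5 FPKM) and 0 passing. Its groups were apart in 1 of the 12, again not above the 16.4% of all tested genes. That gene was Ggps1, the geranylgeranyl diphosphate synthase gene, at 28.7 ± 3.04 FPKM in controls against 22.6 ± 1.78 with cre (SD, n = 3 each; adjusted p = 0.430, limma). The prenyltransferase subunit genes Fnta (56.4 ± 5.70 and 59.4 ± 4.26) and Rabggtb (28.2 ± 1.61 and 22.6 ± 4.04) overlapped. Fatty acid synthesis genes, targets of SREBP1, had 8 of 13 below 0, a median of -0.11 (-0.019 without control library 43, -0.21 as TPM) and 0 passing. Their most abundant members overlapped, namely Acly (55.4 ± 10.9 and 64.6 ± 5.03 FPKM), Elovl5 (60.2 ± 13.5 and 52.4 ± 3.30) and Fads1 (36.4 ± 4.62 and 33.9 ± 7.40). Groups were apart in 2 others of the 13, chosen after their values were seen. They were apart in 16.4% of all tested genes, so this count lies near the background. Scd1, a fatty acid desaturase gene, had higher levels in Pdgfra-cre (12.1 ± 2.09 and 17.7 ± 2.34 FPKM, limma adjusted p = 0.319). Mid1ip1 had lower ones (31.0 ± 2.04 and 25.4 ± 6.32, limma adjusted p = 0.618), with a log2 fold change of -0.31, and -0.092 without library 13. Its gap was small, from 29.4 FPKM in control library 43 to 29.2 in library 23.

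Genes of sterol efflux are induced by LXR, a nuclear receptor for oxysterols. The list of 10 held LXR targets, not all of them efflux genes, and the LXR receptor genes Nr1h2 and Nr1h3. Of these 10, 7 reached the filter of 1 FPKM in 3 libraries, with 4 above 0, 3 below and 0 passing. The median was 0.018, the value of Nr1h2 (-0.078 as TPM, 0.11 without library 25). Abca1, the cholesterol exporter gene, had 7.18, 8.30 and 6.02 FPKM in controls 8, 9 and 43 and 10.7, 13.3 and 11.4 in Pdgfra-cre libraries 13, 23 and 25. Every Pdgfra-cre library was above every control (log2 fold change 0.65 ± 0.19, SE; limma adjusted p = 0.243). Apoe, a lipid carrier gene that LXR also induces, lay the other way, at 805, 772 and 774 FPKM in controls 8, 9 and 43 and 334, 274 and 442 in libraries 13, 23 and 25 (adjusted p = 0.107, limma, and 0.0199 without library 25). Pltp (220 ± 32.5 and 267 ± 56.5) and the receptor gene Nr1h2 (27.9 ± 0.703 and 28.4 ± 3.17) overlapped. The other LXR receptor gene, Nr1h3, named after its values were seen, had 13.8, 15.8 and 12.2 FPKM in controls 8, 9 and 43 and 20.7, 18.2 and 20.3 in libraries 13, 23 and 25. Each of these Pdgfra-cre values lay above each control (log2 fold change 0.48 ± 0.16, SE; limma adjusted p = 0.285).

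In the list of oxysterol and ester metabolism, 9 of 12 genes reached the filter, 6 of these were below 0, the median was -0.076 (-0.17 as TPM, -0.0068 without library 23) and 0 passed. Ch25h, whose product makes an oxysterol that blocks SREBP processing and which interferon is known to induce in macrophages, was lower in Pdgfra-cre. It had 29.9, 20.8 and 22.1 FPKM in controls 8, 9 and 43 and 10.3, 13.7 and 14.3 in Pdgfra-cre libraries 13, 23 and 25. The groups were apart, with a log2 fold change of -0.87 ± 0.19 (SE; 95% interval -1.31 to -0.44; limma adjusted p = 0.169). Hsd3b7 (66.9 ± 7.2 and 84 ± 15.9 FPKM), Lipa (47.8 ± 5.75 and 44.6 ± 5.31) and Cyp27a1 (39.6 ± 5.09 and 38.2 ± 5.63), the most abundant of the list, overlapped.

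**Figure D3:**
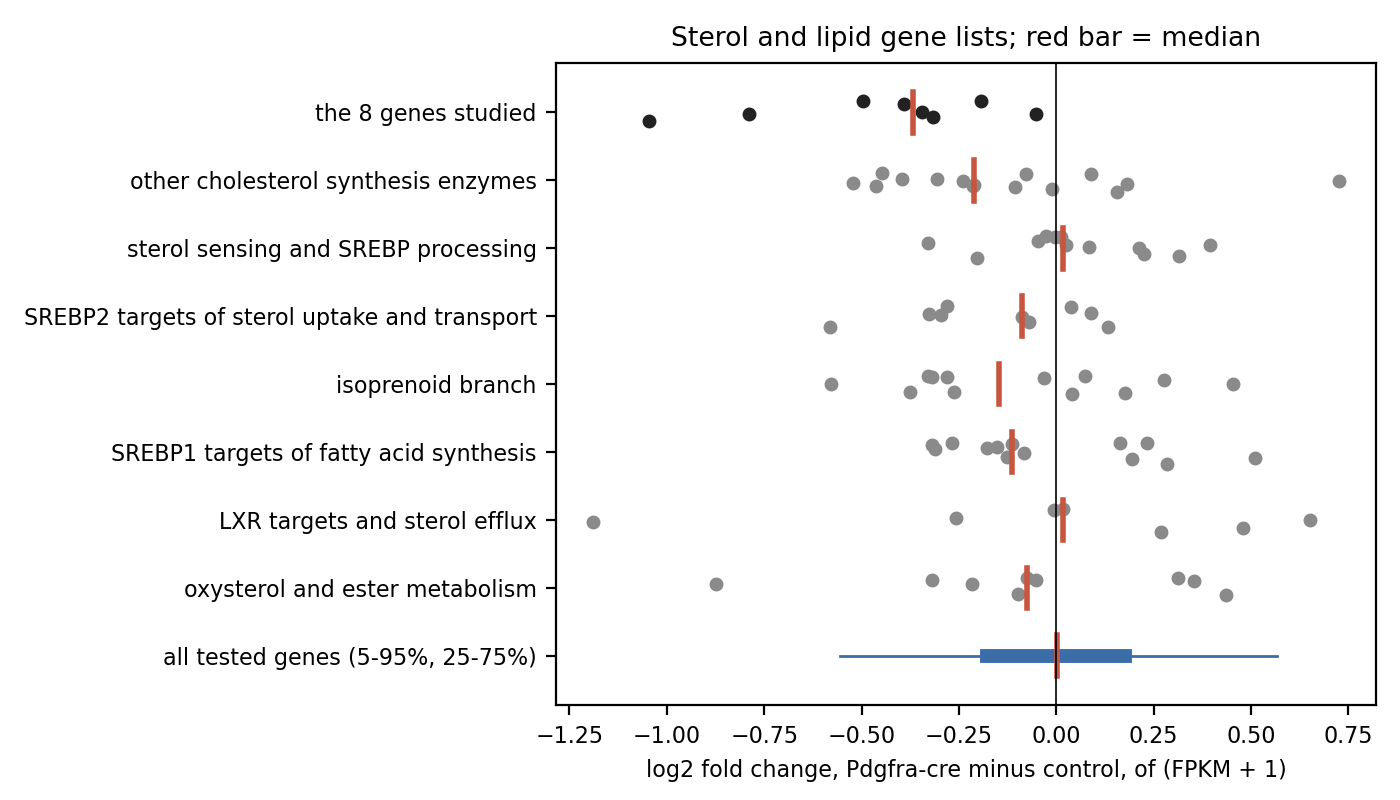
Log2 fold change of FPKM + 1 (Pdgfra-cre minus control) of each tested gene in the 8 lists, with 1 dot per gene and the median as a red bar, beside all 11429 tested genes as a median with percentile ranges. The 8 sterol genes have a median of -0.37 and the other enzymes -0.21, while the remaining lists have medians between -0.15 and 0.018.

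By likeness alone, genes outside the set with a mean of at least 5 FPKM whose levels over the 6 libraries were among the most like the mean z-score of the 8 genes were Pex11a, Lrpap1, Lgmn and Lppr3. Their Pearson likeness was 0.988 to 0.997, a description over 6 libraries that fall into 2 groups. Pex11a, a peroxisome division gene, had 9.44, 8.04 and 6.56 FPKM in controls 8, 9 and 43 and 2.65, 3.82 and 4.62 in Pdgfra-cre libraries 13, 23 and 25. Lgmn, which encodes a lysosomal protease, had 297 ± 32.8 and 196 ± 17.9 FPKM (SD, n = 3 each). Lrpap1, which encodes an endoplasmic reticulum chaperone, had 129 ± 5.68 and 111 ± 4.75, and Lppr3 had 13.7 ± 2.67 and 7.37 ± 1.5.

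Markers of some other cell types differed in level between these libraries, but none of them passed the test (lowest limma adjusted p = 0.147, for Msln). All 7 smooth muscle markers were lower with no overlap, as were 8.29% of all tested genes. Their summed level was 598 to 621 FPKM in controls and 145 to 366 in Pdgfra-cre. The summed level of 5 pericyte markers was 38.4 to 55.6 FPKM in controls and 30.0 to 36.0 in Pdgfra-cre, with 1 gene, Kcnj8, lower with no overlap. Most of this sum came from Kcnj8 and Abcc9. Abcc9, Cspg4 and Notch3 overlapped between groups, as did Rgs5, whose mean was slightly higher in Pdgfra-cre (3.41 ± 0.235 and 3.72 ± 1.05 FPKM). Mesothelial markers were higher, with 4 of 5 apart between groups, where 8.07% of all tested genes were higher with no overlap. Their sums were 2.05 to 5.87 FPKM in controls and 11.0 to 54.8 in Pdgfra-cre. Msln, Upk3b and Krt7 reached the filter of 1 FPKM in 3 libraries only through the Pdgfra-cre libraries, and Lrrn4 did not reach it. The share of tested genes is therefore not a like background for these 4 genes. Neutrophil marker sums were 1.10 to 11.3 FPKM in controls and 10.9 to 180 in Pdgfra-cre, which overlapped, and were highest in library 23. Of the 7 neutrophil markers, 2 were higher with no overlap, S100a8 and S100a9. The gap of S100a8 was small, from 6.84 FPKM in control library 9 to 6.90 in library 25. No smooth muscle marker was at 0 in any library. Msln, Krt7 and Notch3 were at 0 in control library 8, Lrrn4, S100a8 and S100a9 in control library 43, and Retnlg in both. Csf3r and Mmp9 were at 0 in Pdgfra-cre library 13, and Itgam in control library 43 and Pdgfra-cre libraries 23 and 25. The part of these cells in the sterol gene values was not tested, and in bulk RNA fewer cells of a type cannot be told apart from less RNA per cell.

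**Figure D4:**
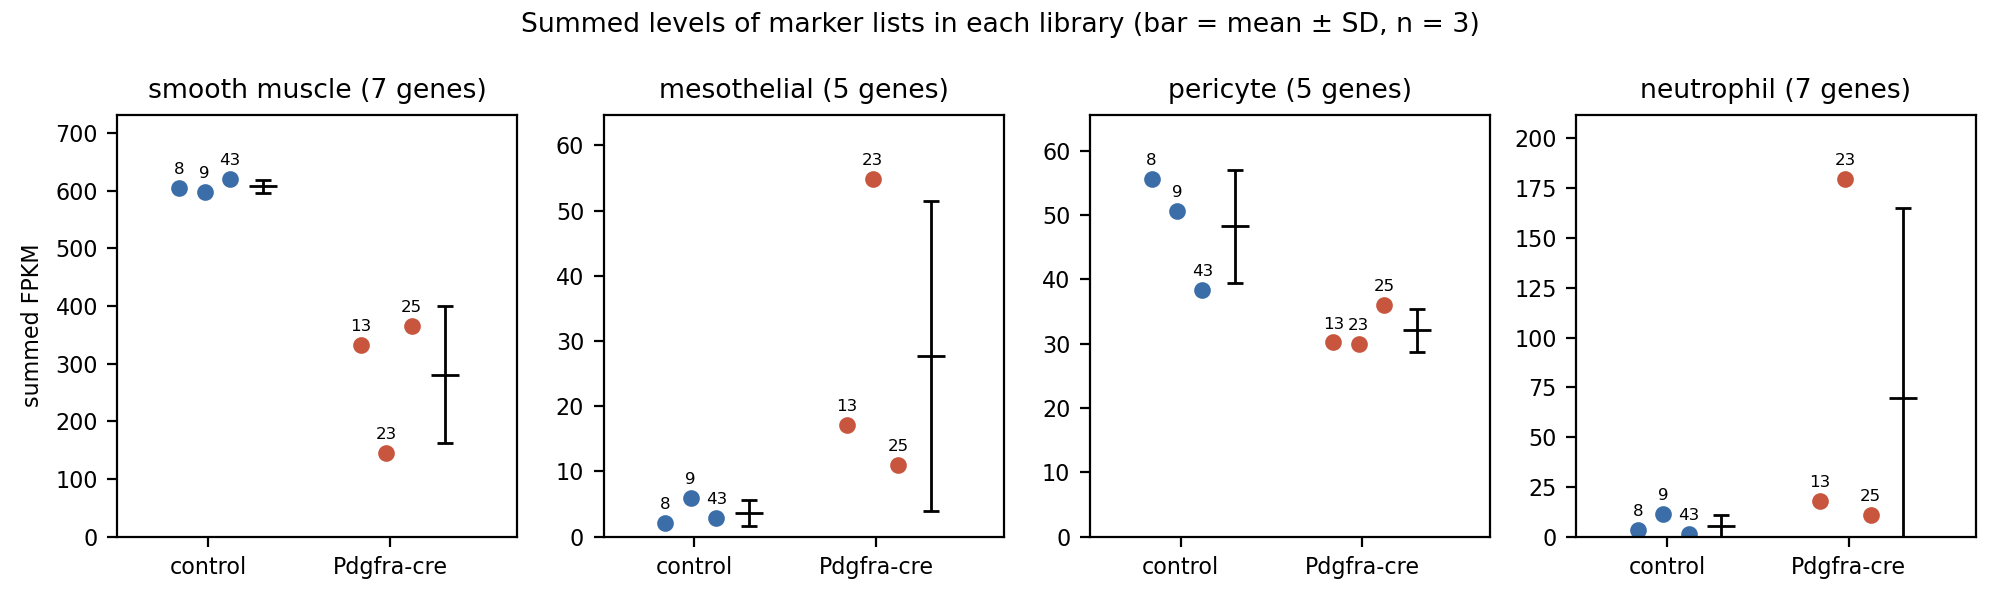
Summed FPKM of marker lists for smooth muscle, mesothelial cells, pericytes and neutrophils in each library, with 1 dot per mouse labelled by library number and mean ± SD (n = 3, with error bars ended at 0). Smooth muscle sums lie at 598 to 621 in controls and at 145 to 366 in Pdgfra-cre, and library 23 has the lowest smooth muscle sum and the highest neutrophil sum.

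Sums of macrophage and monocyte markers (21.2 to 30.5 FPKM in controls, 17.2 to 40.7 in Pdgfra-cre), epithelial markers (5.51 to 23.8 and 10.6 to 47.5), endothelial markers, mostly Tek (30.3 to 36.4 and 33.3 to 43.5), glial markers (5.63 to 14.9 and 5.24 to 8.78) and lymphocyte markers (0.460 to 1.36 and 0.802 to 1.60) overlapped between groups. Within these lists, Krt18 was higher in Pdgfra-cre with no overlap. Adgre1, Sox10, Tie1 and Prox1 were lower with none, each under 1 FPKM in every library. The endothelial marker Cdh5 was at 0 in all 6 libraries, and Pecam1, Kdr and Tie1 stayed under 1 FPKM, so the endothelial sum follows Tek and not these genes. Fibroblast markers, 8 genes, summed to 15810 to 19145 FPKM in controls and 18979 to 19358 in Pdgfra-cre, mostly from Dcn and Col3a1. Of these 8, 7 had a log2 fold change above 0. Pdgfra itself, whose control elements drive the cre, had 178, 186 and 199.9 FPKM in controls 8, 9 and 43 and 155, 120.5 and 174 in libraries 13, 23 and 25, with no overlap (log2 fold change -0.34, and -0.20 without library 23; limma adjusted p = 0.411). The sort genes Ptprc (CD45), Pecam1 (CD31) and Epcam stayed at or under 1.11 FPKM. Il10ra, the targeted gene, was listed at 0 in 5 libraries and at 0.418 FPKM in control library 43, so its loss could not be shown. Library 23 had the lowest mean correlation with the others, and without it the median of the 8 sterol genes was -0.38 and 7 of them lay lower with no overlap, as 12.6% of tested genes did in those 5 libraries.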

How the data were processed

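Per the labels' protocols, total RNA was amplified as full-length cDNA and tagmented, a route that keeps no strand. The authors deposited FPKM for 24346 genes, 1 table per library. Per the submitters' processing notes, mm10, TopHat2 2.1.1, Bowtie2 2.2.8, SAMtools 0.1.18 and Cuffdiff 2.2.1 were used. The annotation release and program options are not given in the sources used here. Antisense or overlapping reads may thus count toward a gene.

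The FPKM were analysed as log2(FPKM + 1) with limma 3.58.1 in R 4.3.3 (moderated test, variance trend, Benjamini-Hochberg, threshold 0.05) over 11429 genes at 1 FPKM or more in at least 3 libraries. This scale understates differences of low genes. The procedure was tested on simulated data, but with changes larger than those of most of the 8 genes, so its recovery of changes as small as theirs was not tested. The members, lists and named genes were chosen with earlier results of these data known. Named genes were the 8, the other enzymes, 9 further sterol genes, the 3 most abundant of each other list and 5 of like pattern, of which 6 genes are not reported here. Erlin2, Scd1, Mid1ip1, Nr1h3 and Pdgfra were added after their values were seen. Gene positions are from GENCODE M21, and promoters from RefSeq. Alternatives were other pseudocounts, filters, scalings and fit options, and leaving out each library. Each library is from 1 mouse.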

Additional observations from a re-analysis of the deposited data

How the results depend on the processing

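No paired analysis was possible because the groups share no replicate number. Over 16 alternatives, 0 of the 8 genes passed and their median log2 fold change stayed between -0.47 and -0.33. The range was -0.43 to -0.36 when 1 library was left out. The median of all tested genes moved to -0.090 after rescaling to TPM. Over all genes, leaving out 1 library gave 0 to 33 calls, with 33 without Pdgfra-cre library 25, 3 without Pdgfra-cre library 13 and 2 without control library 43, and the 8 genes were not among them. Of the 8, 3 to 5 had an unadjusted p under 0.05, with 3 without control library 8 or Pdgfra-cre library 13. Lss was not tested at a filter of 5 FPKM.

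Of 827 recomputed log2 fold changes, 41 changed sign. By quantile normalization these were Insig2 (-0.010), Ufd1l (-0.0044) and Nr1h2 (-0.0053). By TPM, where the median of all tested genes was -0.090, they were Ebp (-0.0055), Insig2 (-0.085), Mbtps1 (-0.012), Ufd1l (-0.071), Npc2 (-0.0071), Fnta (-0.021) and Nr1h2 (-0.078). With array weights they were Lbr (0.053), Insig2 (-0.097), Nr1h2 (-0.0035) and Cyp27a1 (0.042). With 1 library left out, the ranges were -0.17 to 0.10 for Srebf2, -0.39 to 0.19 for Mvk, -0.033 to 0.39 for Mvd, -0.18 to 0.24 for Lbr, -0.31 to 0.090 for Nsdhl, -0.042 to 0.17 for Ebp, -0.16 to 0.046 for Scap, -0.22 to 0.17 for Insig2, -0.031 to 0.16 for Mbtps1, -0.087 to 0.21 for Ufd1l, -0.012 to 0.15 for Npc2, -0.26 to 0.19 for Tmem97, -0.25 to 0.058 for Fads1, -0.039 to 0.11 for Nr1h2 and -0.16 to 0.052 for Cyp27a1. The cause was not tested.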
